A study of Mus musculus with 5 samples.

Results

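Macrophages and other phagocytes carry a shared set of genes for sensing, engulfing and digesting particles, and 37 such genes are described here in the esophagus of mice in which the cytokine IL-13 can be switched on. The members were taken from a written list, and each was read through the probe sets assigned to its symbol and to no other. At least 1 such probe set was present for 36 of the 37 genes, giving 58 of the 34945 probe sets with a single symbol. The exception was Lilrb4a, an inhibitory receptor gene whose probe set is shared with another symbol, and it has no value here. Where a gene had several probe sets, the one of highest mean log2 signal level over all 5 arrays stood for it. The 36 members were thus read among 18193 genes. As that mean includes the Dox arrays, the choice favours probe sets that rise in Dox. In Fcgr1, Trem2, Marco and Adgre4 the chosen probe set had the lower NoDox level and the larger rise. Among the other members with several, it had the highest NoDox level.

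Macrophages bind targets through Fc receptors, which recognise antibody, and through lectin, complement and scavenger receptors. Many of these receptors signal through small adaptor proteins, Tyrobp and Fcer1g among them, and bound particles are taken into a phagosome that fuses with lysosomes and receives oxidants from the NADPH oxidase. The growth factor receptor Csf1r supports the survival of these cells, and IL-4 and IL-13 are known to drive a state called alternative activation.

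Expression was measured with Affymetrix Mouse Genome 430 2.0 arrays, which hybridise labelled RNA to short probes grouped in probe sets. All 5 arrays came from CC10-rtTA/tetOn-IL-13 transgenic mice on the FVB/N background, aged 3 to 4 months. The Dox group (n = 3 arrays) received a diet with doxycycline and the NoDox group (n = 2 arrays) a regular diet. The CC10 promoter, which drives the transactivator, is known for its activity in club cells of the airway. The transgene was thus present in both groups. Mice without it on the doxycycline diet are not analysed here, and effects of the diet and of IL-13 cannot be told apart. Whether the arrays stand for different animals is not given in the labels, and the p-values then cover array-to-array spread alone, which may be technical. Each value is a ratio to the mean of both NoDox arrays, with 1 array value per gene and no detection call.

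Many of the phagocyte genes were higher on the doxycycline diet, and none was past the threshold in the other direction. With limma and Benjamini-Hochberg adjustment over all genes, 13 of the 36 members rose in Dox at an adjusted p under 0.05, against 1.37% of all genes tested (250 of 18193). Lower calls numbered 0 of 36, against 1.18% of all genes (215 of 18193), and at an unadjusted p under 0.05 limma gave 27 members higher and 0 lower, against 6.88% of all genes higher (1252) and 10.5% lower (1902). The median log2 fold change of the members was 0.94, that of all genes -0.08, and 34 of the 36 members lay above 0. The 3 Dox arrays lay above both NoDox arrays in 29 members, a separation that 13.8% of all genes showed. All 3 Dox arrays lay below both NoDox arrays in 0 members, against 21.8% of all genes. In whole tissue, a larger number of cells of a type and more RNA in each cell cannot be told apart.

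The 13 calls comprised the adaptor Tyrobp, the Fc receptor Fcgr3, the growth factor receptors Csf1r and Csf2rb, and the lectin receptors Clec7a and Clec10a. They also comprised the scavenger receptor Marco, the surface receptor Adgre1, the oxidase subunits Ncf1 and Ncf4, and the lysosomal or phagosomal genes Cd68, Lyz2 and Gpnmb. The number of calls rested on single arrays and on the variance model. It was 5 without Dox replicate 3, 3 without NoDox replicate 1 and 2 without NoDox replicate 2, and the lysosomal gene Cd68 alone was past the threshold whichever of the 5 arrays was dropped. Without an intensity trend limma called 0 members (24 higher and 0 lower at an unadjusted p under 0.05), and with the trend on the mean log2 ratio 0 members (25 higher and 0 lower). Over all genes the split of 250 higher to 215 lower became 301 to 151 once the median ratio of every array was set to 1, when 14 members were called. It became 310 to 124 with quantile normalization of the recovered signals, when 15 members were called, and 54 to 11 with quantile normalization of the log2 ratios, when 2 were called.

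**Figure D1:**
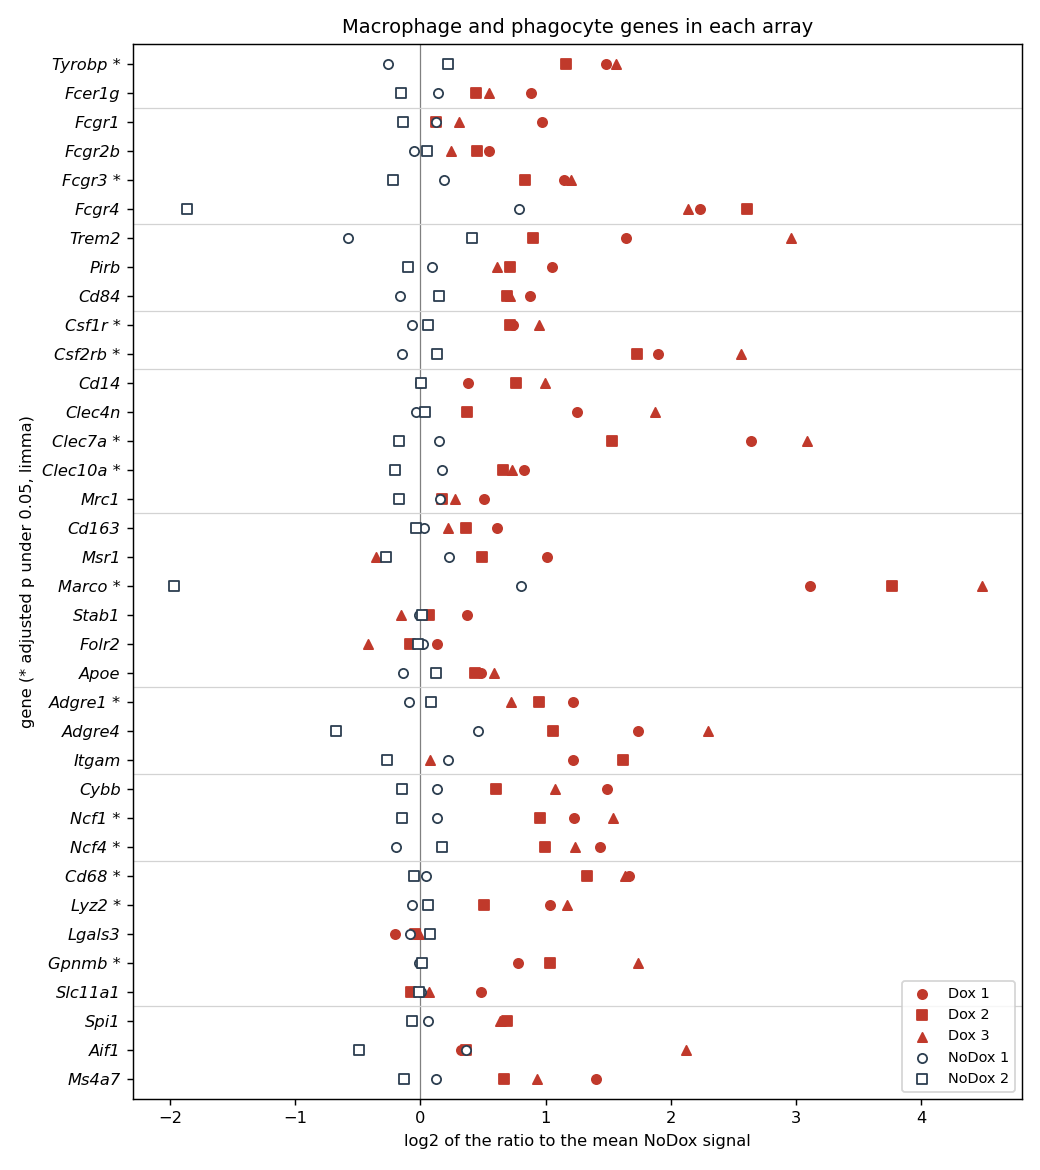
Log2 ratio to the mean NoDox signal (x axis) of each of the 36 measured phagocyte genes (y axis, grouped by role) in the 3 Dox arrays (filled) and 2 NoDox arrays (open), with an asterisk at an adjusted p under 0.05 (limma). In 29 genes every filled symbol lies to the right of both open symbols, and in Marco and Fcgr4 the open symbols lie far apart.

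The Dox arrays were not alike in these genes. The median log2 ratio of the 36 members was 1.02 in Dox replicate 1, 0.69 in replicate 2 and 0.94 in replicate 3. Dox replicate 1 was the highest Dox array in 17 members, replicate 3 in 16 and replicate 2 in 3, and replicate 2 was the lowest in 21, replicate 3 in 10 and replicate 1 in 5. Among all 18193 genes 6593, 5409 and 6191 were highest in replicates 1, 3 and 2, and replicate 2 was likewise the most often lowest, in 7091 genes against 5818 for replicate 3 and 5284 for replicate 1. Both NoDox arrays had medians near 0, at 0.04 and -0.04. These mirror each other because the NoDox values of a probe set add up to 2, so they do not measure likeness of the NoDox arrays.

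For 26 members at least 1 RefSeq start site was listed, and the 250 bases before each (build GRCm38.p6) were searched for GAGGAA and TTCNNNNGAA. The letters GAGGAA are the core recognised by the myeloid factor PU.1 (gene Spi1). TTCNNNNGAA is a spacing recognised by STAT6, the factor activated by IL-4 and IL-13. A gene with several starts was counted if any of them held the letters. Both strands were read. GAGGAA was found in 14 of the 26 members (53.8%), against 25.9% of 27025 genes and 23.25% of all 32851 listed starts, and 4 of the 7 members past the threshold with a listed start held it. TTCNNNNGAA was found in 3 members (11.5%), namely Clec7a, Lgals3 and Ms4a7, against 6.8% of genes and 5.85% of starts. GAGGAA was also found in members not past the threshold, namely Fcgr1, Fcgr4, Trem2, Pirb, Mrc1, Stab1, Apoe, Itgam, Slc11a1 and Aif1. Only the promoters of the 4 genes past the threshold that hold GAGGAA are shown, each at its first listed start. All lie on the minus strand, are printed 5′ to 3′ and end at the base before the start, at chr1:171059404-171059653 for Fcgr3, chr6:129472780-129473029 for Clec7a, chr1:120505025-120505274 for Marco and chr11:69666171-69666420 for Cd68. Capitals mark GAGGAA or its reverse complement and, in Clec7a, also the STAT6 spacing, whose match lies apart from the other.
Fcgr3: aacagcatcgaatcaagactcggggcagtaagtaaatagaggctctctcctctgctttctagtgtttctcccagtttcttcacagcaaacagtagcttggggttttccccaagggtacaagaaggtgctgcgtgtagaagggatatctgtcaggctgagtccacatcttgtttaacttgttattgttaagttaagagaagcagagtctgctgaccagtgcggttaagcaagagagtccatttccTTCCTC
Clec7a: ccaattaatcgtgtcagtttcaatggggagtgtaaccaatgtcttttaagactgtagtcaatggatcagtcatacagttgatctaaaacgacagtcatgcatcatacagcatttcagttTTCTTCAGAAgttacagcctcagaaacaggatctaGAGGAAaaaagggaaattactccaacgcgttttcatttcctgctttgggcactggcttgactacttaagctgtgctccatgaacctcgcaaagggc
Marco: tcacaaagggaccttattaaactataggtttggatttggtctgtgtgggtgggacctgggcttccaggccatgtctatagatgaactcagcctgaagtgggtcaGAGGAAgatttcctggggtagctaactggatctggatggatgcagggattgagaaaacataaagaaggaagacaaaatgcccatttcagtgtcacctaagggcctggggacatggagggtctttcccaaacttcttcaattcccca
Cd68: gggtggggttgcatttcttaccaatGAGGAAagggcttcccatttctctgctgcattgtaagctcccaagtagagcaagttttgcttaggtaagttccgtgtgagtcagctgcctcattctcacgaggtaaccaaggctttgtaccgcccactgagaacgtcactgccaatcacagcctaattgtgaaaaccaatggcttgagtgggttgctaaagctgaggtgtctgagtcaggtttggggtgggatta
The first base of the match lies 6 bases before the start in Fcgr3, 96 in Clec7a (131 for the STAT6 spacing), 146 in Marco and 225 in Cd68. A match is a description of these letters and shows neither a bound site nor a cause of the change.

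Genes of other cell types, lung epithelium and other leukocytes among them, also rose in these arrays. The summed signal of the 36 members, set to a NoDox mean of 1, was 1.54 to 1.93 in the Dox arrays and 0.998 to 1.002 in the NoDox arrays. Of 17 genes shared by all leukocytes 5 rose, Itgb2, Laptm5, Cd53, Dock2 and Rac2, of which the integrin chain Itgb2 had the smallest p (log2 fold change 1.98 ± 0.13 (SE), adjusted p = 0.000124 with limma), and their summed signal was 1.81 to 3.76 in Dox and 0.934 to 1.07 in NoDox. The calls of Laptm5, Cd53, Dock2 and Rac2 were lost without either NoDox replicate, those of Cd53, Dock2 and Rac2 also without Dox replicate 3, and those of Cd53 and Dock2 also without Dox replicate 1 (adjusted p up to 0.273). Dox replicate 3 was the highest Dox array in 15 of these 17 genes. Of 11 lung epithelium genes Sftpb (0.94 ± 0.22), Scgb1a1 (0.79 ± 0.25), Scgb3a2 (0.38 ± 0.45), Hopx (-0.43 ± 0.18) and Aqp5 (-0.81 ± 0.29) were not past the threshold. In Hopx and Aqp5 all Dox arrays lay below both NoDox arrays. The summed signal of the 11 genes was 1.81 to 3.95 in Dox and 0.965 to 1.04 in NoDox. The other 6 rose, the surfactant genes Sftpc (2.18 ± 0.24, Dox ratios 4.69, 3.16 and 6.22), Sftpa1 (2.99 ± 0.37) and Sftpd (2.71 ± 0.35) with Napsa (2.55 ± 0.36), Ager (2.77 ± 0.43) and Slc34a2 (1.91 ± 0.32). These 6 lost their calls without either NoDox replicate (adjusted p up to 0.213), and Dox replicate 3 was the highest Dox array in 9 of the 11 genes. The summed signal of 15 B and plasma cell genes, of which Derl3 (3.17 ± 0.31) and Igha (2.78 ± 0.54) rose, was 6.31 in Dox replicate 3, 1.55 and 1.72 in the other Dox arrays and 0.967 to 1.03 in NoDox, and Igha lost its call without either NoDox replicate (adjusted p up to 0.289).

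Of 16 dendritic and Langerhans cell genes 6 rose, with the smallest p for the Langerhans cell lectin Cd207 (2.53 ± 0.22) and the largest rise for the chemokine receptor Ccr7 (4.73 ± 0.88). The others were the antigen presentation genes H2-Ab1 (1.60 ± 0.16), Cd74 (1.58 ± 0.20) and H2-Aa (1.47 ± 0.20) and the integrin chain Itgax (2.03 ± 0.36). Cd74, H2-Aa, Itgax and Ccr7 lost their calls without either NoDox replicate, and Ccr7 also without Dox replicate 1 or 3 (adjusted p up to 0.241). The dendritic cell markers Cd209a (0.61 ± 0.25), Flt3 (0.43 ± 0.62), Zbtb46 (0.09 ± 0.28) and Xcr1 (-0.18 ± 0.47) were not past the threshold. Of the 16 genes 15 lay above 0, and the list had a summed signal of 2.04 to 3.01 in Dox and 0.955 to 1.04 in NoDox. The part of these other cells in the phagocyte values was not tested, and several members, Tyrobp and Fcer1g among them, are also known from other leukocytes.

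Of 12 mast cell genes Hdc alone rose, and of 17 T and NK cell genes Klrd1 alone, both calls lost without either NoDox replicate and that of Klrd1 also without Dox replicate 3 (adjusted p up to 0.232). The summed signal of the mast cell genes was 1.003 to 1.30 in Dox and 0.933 and 1.07 in NoDox, so that the groups overlapped, and that of the T and NK cell genes was 1.053 to 1.14 in Dox and 0.950 and 1.0495 in NoDox. Of 15 neutrophil genes 6 rose, Stfa3 (1.67 ± 0.13), S100a8 (3.42 ± 0.27), Hdc (3.27 ± 0.48), S100a9 (1.13 ± 0.17), Prtn3 (3.09 ± 0.53) and Cd177 (3.13 ± 0.65), of which S100a8 and S100a9 are also made by keratinocytes. Among those not past the threshold Mmp8 (1.36 ± 1.07), Mmp9 (1.22 ± 0.27), Mpo (1.17 ± 0.74) and Ngp (0.61 ± 0.36) lay above 0, and Cxcr2 (-0.19 ± 0.55), Camp (-0.80 ± 0.83), Il1r2 (-0.86 ± 0.20), Elane (-0.92 ± 0.51) and Ltf (-2.44 ± 1.08) below 0. The summed neutrophil signal was 1.85 to 2.41 in Dox and 0.952 to 1.05 in NoDox. Of 7 eosinophil genes Alox15 and Ear3 rose, whereas Prg2 (-1.09 ± 1.03) and Epx (-0.17 ± 1.12), which encode granule proteins, and the chemokine receptor Ccr3 (0.07, adjusted p = 0.983) were not past it. Alox15 is also a macrophage and epithelial gene, with Dox ratios of 82.0, 72.0 and 77.3. Ear3 was read by a probe set whose name ends in _x_at, which marks sets that can bind more than 1 transcript. The summed signal of the eosinophil list was 31.0 to 40.3 in Dox and 0.915 to 1.08 in NoDox. It followed mainly Alox15 and Ear3, with NoDox levels of 2138 and 2952 steps against 192 to 1083 for the other genes. Hdc, S100a9, Prtn3 and Cd177 lost their calls without either NoDox replicate, Prtn3 and Cd177 also without Dox replicate 3, and Cd177 also without Dox replicate 2 (adjusted p up to 0.307).

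**Figure D2:**
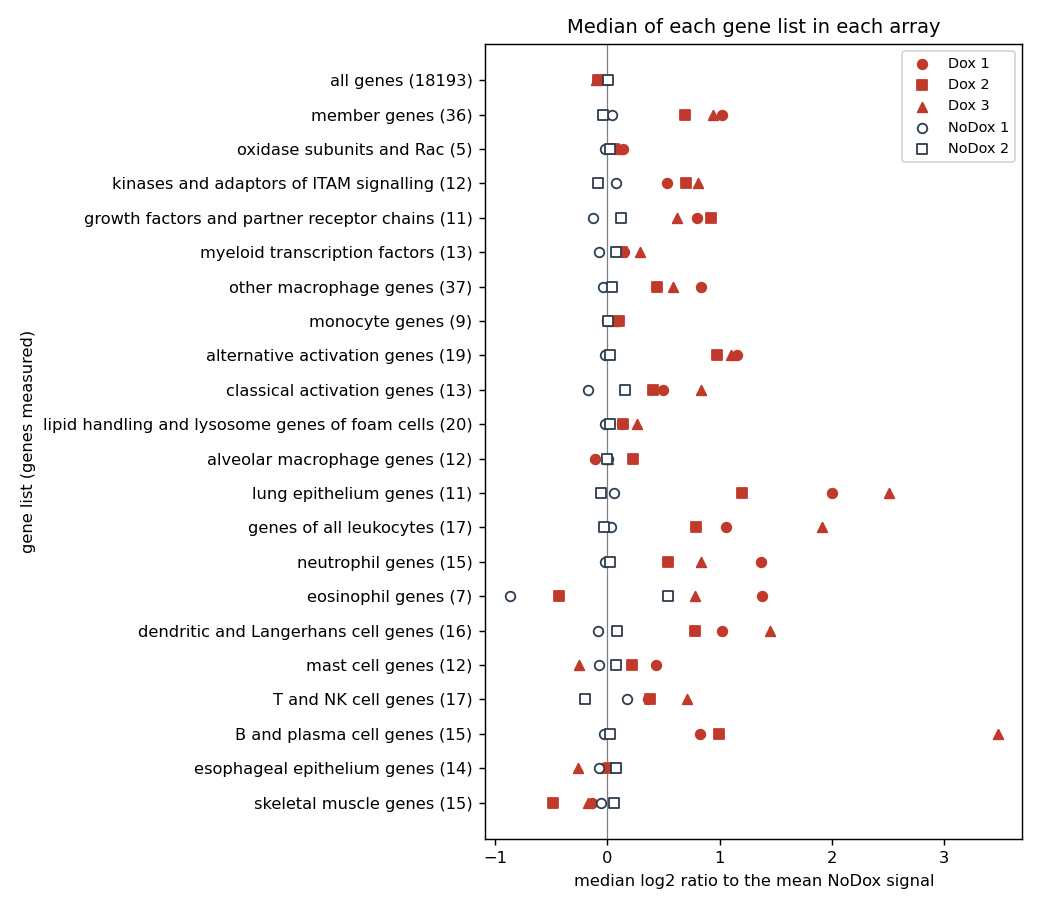
Median log2 ratio to the mean NoDox signal (x axis) of each gene list (y axis, with the number of genes measured) in the 3 Dox arrays (filled) and 2 NoDox arrays (open). The member genes lie at 0.69 to 1.02 in the Dox arrays, all genes lie near 0, and Dox replicate 3 stands apart in the B and plasma cell genes at 3.48.

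The signalling adaptors come first among the members, since many of the receptors work through them. Tyrobp, which carries the activating signal of receptors such as Trem2, had ratios of 2.79, 2.24 and 2.95 in Dox replicates 1, 2 and 3 and of 0.837 and 1.16 in the NoDox arrays. Every Dox array lay above both NoDox arrays, and Tyrobp rose 2.67-fold (log2 fold change 1.42 ± 0.18 (SE), limma adjusted p = 0.00552). Its call was lost without NoDox replicate 1 (adjusted p = 0.114). Fcer1g, the common chain of activating Fc receptors, had ratios of 1.84, 1.36 and 1.46 in Dox against 1.10 and 0.900. Its groups did not overlap either, but its log2 fold change of 0.63 ± 0.19 was not past the threshold (adjusted p = 0.132).

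In the pathway below these adaptors, which runs through kinases and scaffold proteins, 2 of 12 measured genes rose and 0 fell with limma. The median log2 fold change of the 12 genes was 0.76. Plcg2, a phospholipase of this pathway, rose by 0.73 ± 0.15 and the adaptor Lcp2 by 1.33 ± 0.29. The kinase Syk, which binds the phosphorylated adaptors, was not past the threshold at 0.48 ± 0.28 (adjusted p = 0.434). Both calls rested on single arrays, that of Plcg2 being lost without Dox replicate 3 and without either NoDox replicate (adjusted p up to 0.375). That of Lcp2 was lost in the same fits and also without Dox replicate 1 (up to 0.359). Dox replicate 3 was the highest Dox array in 8 of these 12 genes.

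Among the receptors for the Fc part of IgG, 1 of 4 was past the threshold. Fcgr3, an activating receptor of low affinity, had ratios of 2.22, 1.78 and 2.30 in the Dox arrays and of 1.14 and 0.861 in the NoDox arrays. The groups did not overlap, and Fcgr3 rose 2.11-fold (1.08 ± 0.17, adjusted p = 0.0151, limma). This call was lost without Dox replicate 3 and without either NoDox replicate (adjusted p up to 0.213). Fcgr4, another activating receptor, had ratios of 4.70, 6.10 and 4.39 in Dox. Its NoDox arrays differed from each other more than in most members, at 1.72 and 0.275, and its log2 fold change of 2.86 ± 0.71 was not past the threshold (adjusted p = 0.0759). It passed without NoDox replicate 1, at a log2 fold change of 4.19, and with an offset at the median signal level, at a smaller log2 fold change of 0.87. Fcgr1, the receptor of high affinity, was at 0.47 ± 0.40 (adjusted p = 0.608), with Dox replicate 2 (1.0921) just above NoDox replicate 1 (1.0892), and its second probe set was at 0.23 ± 0.40.

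Fcgr2b, the inhibitory member of this family, gave different answers on its 5 probe sets. The probe set that stood for the gene had ratios of 1.46, 1.37 and 1.19 in Dox against 0.965 and 1.03, and its log2 fold change of 0.42 ± 0.14 was not past the threshold (adjusted p = 0.174). With every probe set tested as its own feature, 3 others were past it, at log2 fold changes of 1.80 ± 0.16 (adjusted p = 0.000935), 1.26 ± 0.19 (0.0163) and 1.16 ± 0.16 (0.0138). The strongest of these had ratios of 3.73, 2.99 and 3.83 in Dox against 1.02 and 0.979, with no overlap of the groups. The remaining probe set ran the other way, at -1.68 ± 1.11 (adjusted p = 0.520), with NoDox ratios of 0.387 and 1.61. The Fcgr genes are similar in sequence, and names ending in _s_at or _x_at mark probe sets that can bind more than 1 transcript, which holds for 2 of the 3 higher ones. Which transcripts of Fcgr2b changed is therefore uncertain.

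**Figure D3:**
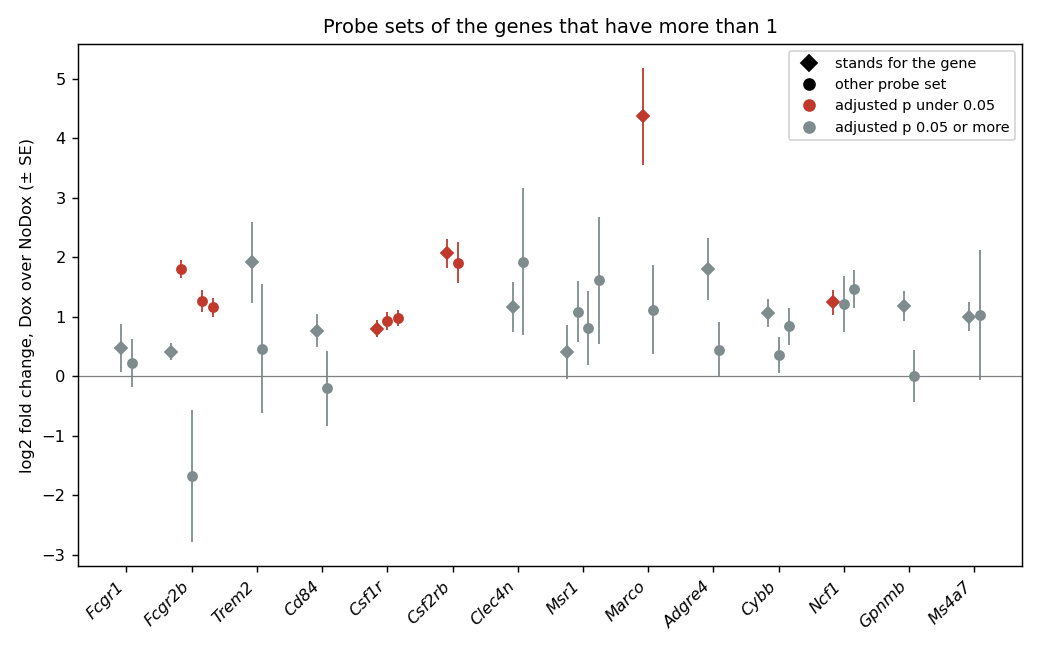
Log2 fold change of Dox over NoDox with its SE (y axis) for every probe set of the 14 members with more than 1 probe set (x axis), each tested as a feature of its own, with diamonds for the probe set that stands for the gene and red for an adjusted p under 0.05. Fcgr2b spans -1.68 to 1.80, and all 3 probe sets of Csf1r lie between 0.80 and 0.99.

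The remaining paired receptors were not past the threshold. Trem2, a lipid-sensing receptor that signals through Tyrobp, had ratios of 3.12, 1.86 and 7.76 in Dox against 0.669 and 1.33. Dox replicate 3 lay far above the other Dox arrays, and the log2 fold change of 1.92 ± 0.68 gave an adjusted p of 0.192. It shrank to 0.60 with an offset at the median signal level, and its other probe set was at 0.46 ± 1.08. Pirb, an inhibitory receptor from a family of near-identical genes, was at 0.80 ± 0.23 (adjusted p = 0.113), with ratios from 1.53 to 2.07 in Dox and of 1.07 and 0.932 in NoDox. Cd84, an adhesion receptor of the SLAM family, was at 0.77 ± 0.28 (adjusted p = 0.207) and its other probe set at -0.20 ± 0.63.

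Both growth factor receptors rose. Csf1r, the receptor for CSF1 and IL-34 and a defining macrophage marker, had ratios of 1.67, 1.65 and 1.93 in Dox against 0.955 and 1.04. The arrays did not overlap, and Csf1r rose 1.75-fold (0.80 ± 0.14, adjusted p = 0.0193, limma). Its other probe sets, at 0.93 ± 0.15 and 0.99 ± 0.14, were also past the threshold when tested singly. The call of Csf1r was lost without Dox replicate 3 and without either NoDox replicate (adjusted p up to 0.247).

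Csf2rb, the common chain of the receptors for GM-CSF, IL-3 and IL-5, had ratios of 3.73, 3.31 and 5.91 in Dox against 0.905 and 1.09. Replicate 3 was the highest, the groups did not overlap, and Csf2rb rose 4.20-fold (2.07 ± 0.24, adjusted p = 0.00301). The second probe set gave 1.91 ± 0.34. The call was lost without either NoDox replicate (adjusted p up to 0.0872). Csf2rb2, a near-identical neighbour that can share probes, rose by 1.45 ± 0.29, and Csf2ra, the chain specific for GM-CSF, by 1.01 ± 0.17. These were the 2 of 11 ligands and partner chains past the threshold, and 0 fell. Csf2ra lost its call without Dox replicate 3 and without either NoDox replicate (adjusted p up to 0.228), and Csf2rb2 in these fits and without Dox replicate 1 (up to 0.307). The ligands Csf1 (0.46 ± 0.14), Il34 (0.72 ± 0.20), Csf2 (0.73 ± 0.91), Il3 (0.75 ± 1.14) and Il5 (0.50 ± 0.50) were not past the threshold.

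Of 5 receptors that sense microbial surfaces 2 rose. Clec7a, or dectin-1, the receptor for fungal beta-glucan, had ratios of 6.24, 2.89 and 8.52 in Dox against 1.11 and 0.891. The Dox arrays differed widely among themselves but all lay above the NoDox arrays, and Clec7a rose 5.39-fold (2.43 ± 0.38, adjusted p = 0.0134, limma). The call was lost without either NoDox replicate (adjusted p up to 0.177). Its promoter, printed above, was 1 of the 3 among the members with the STAT6 spacing.

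Clec10a, a lectin for galactose-type sugars, had ratios of 1.77, 1.58 and 1.66 in Dox against 1.13 and 0.871. These Dox arrays were close together and did not overlap with NoDox, and Clec10a rose 1.68-fold (0.75 ± 0.16, adjusted p = 0.0475). Dropping Dox replicate 2 left its call in place, and the call was lost without Dox replicate 1, Dox replicate 3 and either NoDox replicate (adjusted p up to 0.415). Cd14, the co-receptor for lipopolysaccharide, had ratios of 1.30, 1.70 and 1.99 in Dox against 0.9955 and 1.0045 (0.71 ± 0.19, adjusted p = 0.0908). Its groups did not overlap, and Cd14 passed the threshold without Dox replicate 1, at 0.88. Clec4n, or dectin-2, was at 1.17 ± 0.43 (adjusted p = 0.205), with Dox ratios from 1.30 to 3.67, and its second probe set was at 1.93 ± 1.24. The mannose receptor Mrc1, a common marker of alternatively activated macrophages, was at 0.33 ± 0.16 (adjusted p = 0.336), with Dox ratios of 1.42, 1.13 and 1.21 against 1.11 and 0.886.

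Among the role groups the scavenger and uptake receptors spread the most widely, from -0.12 to 4.37 on the log2 scale, and 1 of 6 was past the threshold. Marco, a scavenger receptor for bacteria and inert particles, had ratios of 8.63, 13.6 and 22.4 in Dox and of 1.74 and 0.255 in NoDox. All Dox arrays lay far above both NoDox arrays, which themselves differed several-fold, and Marco rose 20.7-fold (4.37 ± 0.81, adjusted p = 0.0275, limma). The call was lost without Dox replicate 3 and without NoDox replicate 2 (adjusted p up to 0.211). With an offset at the median signal level the log2 fold change shrank to 1.19 and stayed past the threshold. With the mean over both probe sets Marco was not past the threshold, and its second probe set was at 1.13 ± 0.74 (adjusted p = 0.519). The probe set behind the call had the lower NoDox level of the pair (383.8 against 388.4 steps), so its choice rested on the Dox arrays. Marco is also a known gene of alveolar macrophages.

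Cd163, the receptor for haptoglobin and haemoglobin complexes, was at 0.40 ± 0.17 (adjusted p = 0.264), and its Dox ratios of 1.53, 1.28 and 1.17 all exceeded the NoDox ratios of 1.02 and 0.978. Apoe, a lipid carrier that macrophages secrete, was at 0.51 ± 0.14 (adjusted p = 0.0996), with Dox ratios from 1.35 to 1.50 against 0.910 and 1.09. Those groups did not overlap, but neither gene passed the threshold. Msr1, a scavenger receptor for modified lipoproteins, was at 0.41 ± 0.46 (adjusted p = 0.707), with Dox replicate 3 (0.783) below both NoDox arrays (1.17 and 0.826). Its other 3 probe sets lay at 0.81 to 1.62, all not past the threshold. Stab1, a clearance receptor, was at 0.10 ± 0.17, and Folr2, a folate receptor of tissue-resident macrophages, at -0.12 ± 0.18, with Dox ratios of 1.10, 0.942 and 0.749 against 1.01 and 0.986. In both genes the groups overlapped, and leaving out 1 array turned the sign, to -0.040 in Stab1 without Dox replicate 1 and to 0.024 in Folr2 without Dox replicate 3.

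Of the 3 adhesion receptors 1 rose. Adgre1, which encodes the F4/80 antigen and is a defining marker of mouse macrophages, had ratios of 2.33, 1.93 and 1.65 in Dox against 0.937 and 1.06. The groups did not overlap, and Adgre1 rose 1.95-fold (0.97 ± 0.17, adjusted p = 0.0235, limma), a call lost without either NoDox replicate (adjusted p up to 0.267). Its relative Adgre4 had Dox ratios of 3.33, 2.09 and 4.92 against 1.37 and 0.626 (1.81 ± 0.52, adjusted p = 0.113) and shrank to 0.69 with an offset at the median signal level, and its second probe set was at 0.45 ± 0.46. Itgam, the CD11b chain of the complement receptor that pairs with Itgb2, had ratios of 2.33, 3.08 and 1.06 in Dox against 1.17 and 0.832. Dox replicate 3 fell between the NoDox arrays, and the log2 fold change of 0.99 ± 0.44 was not past the threshold (adjusted p = 0.289).

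The phagocyte oxidase makes superoxide inside the phagosome, and 2 of its 3 listed subunits rose. Ncf1, a cytosolic organiser subunit, had ratios of 2.34, 1.94 and 2.91 in Dox against 1.10 and 0.902 and rose 2.37-fold (1.25 ± 0.20, adjusted p = 0.0163, limma). Ncf4, another cytosolic subunit, had ratios of 2.71, 1.99 and 2.36 against 0.872 and 1.13 and rose 2.35-fold (1.23 ± 0.21, adjusted p = 0.0172). In both genes every Dox array lay above the NoDox arrays, and the other 2 probe sets of Ncf1, at 1.21 ± 0.47 and 1.48 ± 0.32, were not past the threshold when tested singly. Each lost its call without Dox replicate 3 and without either NoDox replicate (adjusted p up to 0.217 in Ncf1 and 0.241 in Ncf4). Cybb, the catalytic subunit in the membrane, had ratios of 2.81, 1.52 and 2.11 against 1.10 and 0.902, and its log2 fold change of 1.07 ± 0.24 lay just outside the threshold (adjusted p = 0.0529). Centring every array on its median took Cybb past the threshold, and its other probe sets were at 0.36 ± 0.30 and 0.84 ± 0.31.

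The partner subunit Cyba, which sits with Cybb in the membrane, rose by 1.13 ± 0.15 (adjusted p = 0.00562), with ratios of 2.18, 1.93 and 2.49 in Dox against 0.975 and 1.02. Rac2, the small GTPase that activates the oxidase of blood cells, rose by 1.33 ± 0.26, while its widely expressed relative Rac1 was at 0.07 ± 0.12. They were 2 of 5 further oxidase genes past the threshold, with 0 lower, and the epithelial oxidase Duox1 was at -0.28 ± 0.13 (adjusted p = 0.304). Cyba lost its call without either NoDox replicate (adjusted p up to 0.129), and Rac2 in these fits and without Dox replicate 3 (up to 0.273).

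Of 5 genes of the phagosome and lysosome 3 rose. Cd68, a lysosomal membrane protein used to stain macrophages, had ratios of 3.17, 2.51 and 3.10 in Dox against 1.03 and 0.967. The arrays of each group lay close together and the groups far apart, and Cd68 rose 2.91-fold (1.54 ± 0.15, adjusted p = 0.00129, limma). Dropping any 1 of the arrays left Cd68 past the threshold (adjusted p at most 0.0463), and its log2 fold change ranged from 1.22 to 1.65 over all alternatives. Without an intensity trend, where limma called 0 members, Cd68 was not past the threshold.

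Gpnmb, a glycoprotein of lipid-laden and phagocytosing macrophages, had ratios of 1.72, 2.05 and 3.34 in Dox against 0.990 and 1.01. All Dox arrays were above NoDox, and Gpnmb rose 2.27-fold (1.18 ± 0.25, adjusted p = 0.0427). The call was lost without Dox replicate 3 and without either NoDox replicate (adjusted p up to 0.295), and the second probe set was at 0.00 ± 0.44. With the mean over both probe sets Gpnmb shrank to 0.59 and was not past the threshold. Lyz2, the lysozyme of macrophages and neutrophils, which is near-identical to Lyz1, had ratios of 2.05, 1.42 and 2.26 in Dox against 0.955 and 1.04. These did not overlap, and Lyz2 rose 1.87-fold (0.91 ± 0.20), the call nearest to the threshold (adjusted p = 0.0496). It was lost without Dox replicate 1, Dox replicate 3 and either NoDox replicate (adjusted p up to 0.339).

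Lgals3, or galectin-3, which squamous epithelium also makes, was at -0.08 ± 0.13 (adjusted p = 0.807), with Dox ratios of 0.871, 0.968 and 0.993 inside or below the NoDox ratios of 0.945 and 1.06. Slc11a1, an iron and manganese transporter of the phagosome, was at 0.16 ± 0.18 (adjusted p = 0.716), with Dox ratios from 0.949 to 1.40. In neither gene were the groups apart.

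The transcription factor Spi1, which encodes PU.1, had closely grouped ratios of 1.59, 1.62 and 1.55 in Dox against 1.05 and 0.954. All Dox arrays were above NoDox, yet its log2 fold change of 0.67 ± 0.20 was not past the threshold (adjusted p = 0.125). Of 13 other myeloid transcription factors limma called 0 in either direction, with Irf8, a factor of monocytes and dendritic cells, nearest at 1.36 ± 0.31 (adjusted p = 0.0598). Aif1, the calcium-binding protein Iba1, had ratios of 1.25, 1.28 and 4.35 in Dox against 1.29 and 0.711. The Aif1 difference was 0.999 ± 0.57 (adjusted p = 0.422), with Dox replicate 3 far above the rest, and the other Dox arrays lay between the NoDox arrays. Ms4a7, a tetraspan gene of mature macrophages, was at 1.01 ± 0.24 (adjusted p = 0.0667), with ratios of 2.65, 1.59 and 1.91 against 1.09 and 0.912, and its second probe set was at 1.03 ± 1.09.

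**Figure D4:**
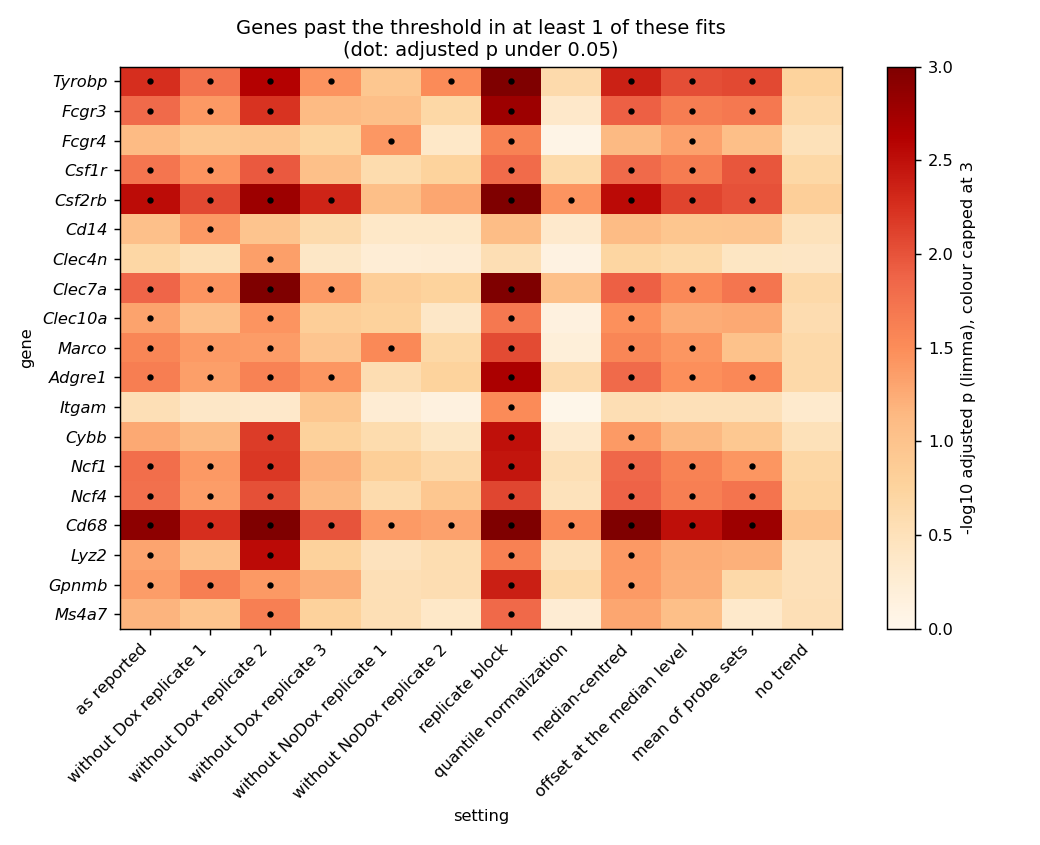
Negative log10 of the adjusted p (colour, capped at 3) of each member past the threshold in at least 1 of the fits shown (y axis) under 12 settings (x axis), with a dot at an adjusted p under 0.05. Cd68 carries a dot in all settings shown but the fit with no trend, and most other genes lose theirs without a NoDox replicate.

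Of 37 further macrophage genes outside the list 6 rose and 0 fell with limma, with a median log2 fold change of 0.68. Mmp12, the macrophage elastase, had ratios of 32.8, 20.9 and 65.8 in Dox against 0.474 and 1.53, and Cd5l, a secreted scavenger protein, had 37.7, 25.2 and 12.4 against 1.54 and 0.463. Both stayed past the threshold whichever array was dropped. The pore-forming gene Mpeg1 rose by 1.52 ± 0.25, Fcna by 1.37 ± 0.22, Clec4a3 by 1.19 ± 0.20 and Ms4a6d by 0.97 ± 0.20. These 4 lost their calls without either NoDox replicate, Mpeg1, Clec4a3 and Ms4a6d also without Dox replicate 3, and Ms4a6d also without Dox replicate 1 (adjusted p up to 0.298). The complement genes C1qa (0.65 ± 0.16), C1qb (0.42 ± 0.15) and C1qc (0.79 ± 0.19) were not past the threshold.

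Genes of alternative and of classical activation were counted in the same fit. Of 19 genes of alternative activation 10 rose and 0 fell, and the 6 of smallest p were Alox15 (6.27 ± 0.13), Chil3 (5.57 ± 0.13), Chil4 (5.54 ± 0.15), the chemokine Ccl8 (3.47 ± 0.16), Retnla (1.13 ± 0.13) and the receptor chain Il4ra (2.11 ± 0.25), some of which epithelial or stromal cells can also make. Retnla lost its call without either NoDox replicate (adjusted p up to 0.0876) and Il4ra without NoDox replicate 2 (0.0563). Arg1, a textbook gene of this state, was at -0.16 ± 0.13 (adjusted p = 0.610). Of 13 genes of classical activation limma called 0 in either direction, with Il6 (3.26 ± 0.89, adjusted p = 0.0994), Cd86 (1.13 ± 0.34) and Il23a (1.97 ± 0.73) nearest and Nos2 at -0.14 ± 1.09. Still, 10 of these 13 lay above 0, with a median log2 fold change of 0.71, against 16 of 19 and 1.015 for alternative activation. All Dox arrays lay above both NoDox arrays in 7 of the 13 and in 13 of the 19, against 13.8% of all genes. They lay below both in 1 of the 13, Il12a (-0.50 ± 0.24), against 21.8% of all genes. In the 19 this held for 3, Arg1, Cd36 (-0.52 ± 0.15) and Flt1 (-0.42 ± 0.17). Most of the classical genes lay below the median signal level, where a call is harder to reach. No test of the difference between the lists was made.

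Genes of alveolar macrophages and monocytes were read because lung and blood could contribute such cells. Of 12 alveolar macrophage genes 3 rose, Car4 (2.46 ± 0.23), Itgax (2.03 ± 0.36) and Atp6v0d2 (2.31 ± 0.43), and Krt79 fell by 1.72 on the log2 scale. The median log2 fold change of the 12 genes was 0.08, and 6 of them lay above 0. Pparg (-0.84 ± 0.36), Fabp1 (-1.40 ± 0.92), Cidec (-0.64 ± 0.34), Slc39a2 (-0.45 ± 0.27) and Krt19 (-0.29 ± 0.35) lay below 0 and were not past the threshold. The summed signal of the 12 genes was 1.05 to 1.40 in Dox and 0.978 to 1.02 in NoDox. It follows mainly Abcg1, Cidec, Krt79 and Krt19, with NoDox levels of 12001 to 30064 steps. The markers Car4 (3614.5 steps), Itgax (2770) and Siglecf (192) had little weight in it. Siglecf, a defining marker of these cells and of eosinophils, was at 2.85 ± 0.84 and not past the threshold (adjusted p = 0.125). Car4 kept its call whichever array was dropped, while Itgax lost it without either NoDox replicate (adjusted p up to 0.211), Krt79 also without Dox replicate 3 (up to 0.223), and Atp6v0d2 in all but the fit without Dox replicate 2 (up to 0.266). Of 9 monocyte genes 2 rose, the matrix gene Fn1 (0.96 ± 0.15) and the peptidase Ace (0.86 ± 0.17), which other cells make as well. Both lost their call without either NoDox replicate, and Ace also without Dox replicate 3 (adjusted p up to 0.275). The monocyte markers Ccr2 (0.03 ± 0.36) and Plac8 (-0.57 ± 0.29) were not past the threshold. The NoDox level of Plac8 was a lower bound of 49742 steps, against 5286 for Ccr2. In Vcan (-0.62 ± 0.21) and S100a4 (-0.32 ± 0.16) all Dox arrays lay below both NoDox arrays, while 6 of the 9 genes lay above 0. The summed signal of the 9 genes was 1.03 to 1.14 in Dox and 0.978 to 1.02 in NoDox. Whether cells of the lung or blood contributed to the members' values was not tested.

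Among 20 genes of lipid handling and lysosomes in foam cells, Atp6v0d2 alone was past the threshold. The median log2 fold change of this list was 0.15. The 5 lysosomal proteases of the list were not past it, at 0.82 ± 0.22 for Ctsk (adjusted p = 0.0994), 0.74 ± 0.18 for Ctsz (0.0739), 0.17 ± 0.12 for Ctsb, 0.06 ± 0.18 for Ctsl and -0.04 ± 0.13 for Ctsd. In the same arrays the squamous epithelium genes of the esophagus gave 1 of 14 higher, Krt6a (2.31 ± 0.13), and 1 lower, Dsg1a (-0.74 ± 0.14), with a summed signal of 0.974 to 1.13 in Dox and 0.958 to 1.04 in NoDox. Dsg1a lost its call without Dox replicate 3 and without either NoDox replicate (adjusted p up to 0.269). Of 15 skeletal muscle genes 3 fell, Myh7, Tnnc1 and Myh4, and the summed muscle signal was 0.583 to 0.703 in Dox and 0.990 to 1.01 in NoDox. In both tissue lists nearly all levels were lower bounds, mostly of similar size. These sums are therefore close to plain means of the ratios and do not measure total signal. The median log2 fold change was -0.27 for the muscle list and -0.09 for the squamous list. The muscle markers Acta1 (-0.08 ± 0.15) and Ckm (-0.15 ± 0.14) were not past the threshold.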

How the data were processed

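RNA from whole esophagus was measured on 5 arrays, and array titles gave the groups. Trizol extraction and biotin labelling with random primers are stated per the labels' protocols. Per the submitters' processing notes MAS 5.0 made the signals and GeneSpring 7.3.1 normalized them in pairs to controls. The values deposited by the authors are a linear ratio. Since both NoDox values add up to 2 (tolerance 0.0001) for 45099 of 45101 probe sets, the reference is the NoDox mean, which differs from pairs. The ratios carry no level, so signal levels were recovered as whole steps, after estimating array scales, for 40710 of 45098 probe sets (90.3%), against 0.575% of 4000 shuffled ones. Other probe sets took a lower bound. On simulated data 96.51% of recovered levels were right. A first search that capped every array's signal gave way to the present one once a fit had been looked at. Summed signals weight each gene's ratio by its NoDox level, or by the bound where none was recovered. They thus follow the genes of highest level in a list.

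The test was limma 3.58.1 in R 4.3.3 on log2 ratios (lmFit and eBayes with an intensity trend on the recovered level, 3 residual degrees of freedom), two-sided, adjusting p by Benjamini-Hochberg across 18193 genes, with no filter. With 1 NoDox array left, that array is assumed to vary like the Dox arrays. In simulations of the comparison of Dox with NoDox over 18193 genes, the fit called 21 of 200 genes changed 2-fold, 127 changed 4-fold and 147 changed 8-fold. The number of arrays limits the precision, and permuting 3 and 2 arrays exactly gives p = 0.1 at the lowest. Probe sets had 1 gene symbol (34945), several (932) or none (9160) in the platform annotation. The members and lists were chosen with earlier results of these data known, so they give no independent support. By rule all members were named, with the genes past the threshold of each further list, at most 6 of smallest p, up to 3 where none was, and defining markers. Other genes of the further lists that are named were chosen after their values were seen. Promoters are from RefSeq, build GRCm38.p6. Alternatives changed the scaling, offset, filter on level, probe set, trend, weights of arrays, use of replicate numbers and threshold, or dropped an array. Python 3.11.15 (pandas 2.3.3, numpy 2.4.6, matplotlib 3.10.9) made tables and figures.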

Additional observations from a re-analysis of the deposited data

How the results depend on the processing

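As reported, 250 genes were higher and 215 lower, 13 and 0 of them members. Lower calls among the members stayed at 0 under every alternative run. Quantile normalization of the log2 ratios, which gives all arrays, Dox and NoDox alike, a common spread, gave 54 and 11 genes and 2 members. Quantile normalization of the recovered signals, added after the data were seen, gave 310 and 124 genes and 15 members, all 13 reported ones among them, and turned Lgals3 to 0.0023. Genes above the median level numbered 314 higher and 334 lower. No trend gave 6 and 0 genes (2418 at an unadjusted p under 0.05) and 0 members. A trend on the mean log2 ratio gave 0 and 0 genes (2365 unadjusted) and 0 members. Array weights gave 454 and 501 genes. The threshold 0.01 gave 91 and 43 genes with 3 members, and 0.1 gave 455 and 489 genes with 18 members. With 1 array dropped, genes higher ranged from 48 to 376, genes lower from 9 to 474 and members higher from 2 to 16. Over these fits Stab1 ranged from -0.040 to 0.22, Folr2 from -0.25 to 0.024 and Slc11a1 from -0.0022 to 0.28, each with a turn of sign. The cause of these changes was not tested.

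Both groups have replicates numbered 1 and 2. Deviations from the group means correlated at 0.0311 for number 1 and 0.0518 for number 2 over 18193 genes, so the numbers were not taken as pairs. With the replicate block 357 genes were higher and 469 lower, 17 members were higher, among them all 13 reported, and Folr2 turned to 0.024. The ratios carry no detection call, and dim genes shrank with an offset, Marco from 4.37 to 1.19 and Fcgr4 from 2.86 to 0.87.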
